A study of Mus musculus with 6 samples.

Results

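The genes described here carry glucose through glycolysis to pyruvate and lactate, route pyruvate into the mitochondrion, and include the oxygen-sensing factor HIF-1 with transcripts that it is known to induce. They were chosen by symbol, as the glycolytic steps in order, the entry points of pyruvate and the HIF-1 targets. The list itself was drawn up with earlier results of these data known. All 41 were found among the 55487 genes of the count files, and 36 of them were abundant enough to be tested among 11429 genes. The RNA came from primary cortical microglia of CAG::CreERT2; Nr1d1fl/fl pups at P1-3, with 3 Cre- cultures as controls and 3 Cre+ cultures as REV-ERBα KO. Every culture carried the floxed Nr1d1 alleles and received 1.5 μM 4-hydroxytamoxifen (4-OHT), for 2 days according to the sample labels. Cre is the difference between the groups that the labels name, and they name neither sex nor litter for any culture. CAG is a promoter active in nearly every cell type, so recombination in this line was not limited to microglia by the promoter. The microglia had been separated from mixed glial cultures, the control cells were from Cre- littermates, and there was 1 library per culture. Nothing in the labels says that the cultures came from separate pups, so the p-values measure the spread between these cultures.

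Glycolysis splits glucose into a pair of pyruvate molecules. A preparatory phase spends ATP from hexokinase to triosephosphate isomerase, and a payoff phase regains it from GAPDH to pyruvate kinase. Pyruvate then either becomes lactate, which leaves the cell through monocarboxylate transporters, or enters the mitochondrion, where pyruvate dehydrogenase and pyruvate carboxylase use it. When oxygen is low, prolyl hydroxylases no longer mark HIF-1α for degradation, and HIF-1 induces glucose transporters, most glycolytic enzymes and the kinases that switch pyruvate dehydrogenase off. In microglia and other macrophages, glycolysis is known to increase with inflammatory activation. REV-ERBα, encoded by Nr1d1, is a nuclear receptor that represses transcription.

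The sequences that precede these genes were searched for the core of the site through which HIF-1 is known to act. Promoter windows of 250 bases before to 50 bases after a transcription start (RefSeq, GRCm38.p6) were found for 38 of the 41 genes, in 55 windows; Slc2a3, Bnip3l and Ndrg1 had none. The hypoxia response element has the core ACGTG or GCGTG, searched on both strands. At least 1 such core was in 42 of the 55 windows (76.4%), against 43.8% of all 32851 windows of that length. The member windows were also richer in G and C, with a median of 62% against 52.7%, and the part of base composition in the motif share was not tested. The half-site AGGTCA, to which REV-ERBα binds within a longer element, was in 18.2% of the member windows and 16.3% of all windows. The full element, the RORE, was in 0 of the 55 windows and in 0.384% of all windows, which says only that its letters were not found there. A match is a stretch of letters, not a bound site. The E-box CACGTG, which contains ACGTG, was in 14.5% of the member windows against 7.15% of all. Windows of 4 members are shown 5′ to 3′ along the gene, with capitals for ACGTG or GCGTG on either strand (on the opposite strand they read CACGT or CACGC). Hk3 is shown because it was the member called in the main test, and Ldha, Pgk1 and Bnip3 as HIF-1 targets with several cores each. The windows lie at chr13:55021336-55021635 on the minus strand (Hk3), chr7:46845554-46845853 on the plus strand (Ldha), chrX:106186850-106187149 on the plus strand (Pgk1) and chr7:138909457-138909756 on the minus strand (Bnip3).
Hk3: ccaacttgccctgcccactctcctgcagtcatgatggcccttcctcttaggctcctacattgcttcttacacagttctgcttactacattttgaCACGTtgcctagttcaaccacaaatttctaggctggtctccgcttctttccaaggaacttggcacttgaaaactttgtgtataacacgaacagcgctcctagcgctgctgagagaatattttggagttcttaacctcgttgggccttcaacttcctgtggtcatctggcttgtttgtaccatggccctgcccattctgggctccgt
Ldha: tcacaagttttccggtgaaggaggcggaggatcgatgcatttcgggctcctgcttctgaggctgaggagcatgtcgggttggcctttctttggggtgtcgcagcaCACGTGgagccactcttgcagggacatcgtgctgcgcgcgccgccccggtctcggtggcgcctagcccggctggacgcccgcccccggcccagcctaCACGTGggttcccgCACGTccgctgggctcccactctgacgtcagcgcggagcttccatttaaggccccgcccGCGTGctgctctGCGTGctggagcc
Pgk1: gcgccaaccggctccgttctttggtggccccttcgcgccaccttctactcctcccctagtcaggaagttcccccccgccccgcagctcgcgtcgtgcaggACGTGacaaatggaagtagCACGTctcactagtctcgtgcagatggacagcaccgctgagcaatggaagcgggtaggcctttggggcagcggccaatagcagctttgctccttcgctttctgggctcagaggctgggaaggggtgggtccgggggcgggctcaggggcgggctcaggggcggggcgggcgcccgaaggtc
Bnip3: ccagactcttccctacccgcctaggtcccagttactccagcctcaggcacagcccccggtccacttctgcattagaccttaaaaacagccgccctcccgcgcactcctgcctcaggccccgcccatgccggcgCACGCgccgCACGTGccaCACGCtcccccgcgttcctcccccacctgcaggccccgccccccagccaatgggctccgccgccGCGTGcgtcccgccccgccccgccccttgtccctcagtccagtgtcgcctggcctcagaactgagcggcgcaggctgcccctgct
The Hk3 window held 1 core, the Pgk1 window 2, the Bnip3 window 5 and the Ldha window 7. In these numbers each CACGTG counts as 2 cores, 1 on each strand.

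The libraries held 87545868 to 110909129 counts on genes. Abundance is given in CPM, a TMM-normalized count scaled to the total of the library over the genes tested. Nr1d1, the targeted gene, had 2.35, 1.2 and 1.64 CPM in the Cre- libraries, compared with 1, 0.945 and 1.08 CPM in the Cre+ libraries. It was lower in every Cre+ library, but the log2 fold change of -0.77, with a standard error (SE) of 0.25, did not reach the threshold (adjusted p = 0.094, edgeR's quasi-likelihood test). Without Cre- replicate 2 it was -0.98 (adjusted p = 0.041, edgeR), and without Cre- replicate 1, the highest library, -0.50 (adjusted p = 0.31, edgeR). Reads on exons outside the deleted part still count towards Nr1d1. Among the 12 microglial markers listed, 11 were tested, and their sum was 7782 to 8020 CPM in Cre- against 7787 to 8090 CPM in Cre+ libraries. Itgam, encoding the integrin CD11b, was the only one of these called, at 104 ± 3.25 and 118 ± 3.68 CPM (SD, n = 3, log2 fold change 0.18, adjusted p = 0.046, edgeR). P2ry12, a marker of resting microglia in the brain, was not tested, at 0.61 CPM in Cre- against 0.722 CPM in Cre+ cells. Markers of other cells were low. The 11 neuronal markers summed to 3.91 to 4.78 CPM in Cre- against 2.66 to 2.84 CPM in Cre+ libraries, the 9 fibroblast and mural markers to 1.87 to 2.92 CPM and 1.04 to 1.24 CPM, both lower in Cre+ cells without overlap. The 11 astrocyte markers summed to 13.9 to 14.9 CPM and 11.6 to 15.3 CPM, and 10 of them were below 1 CPM in every library. The 10 oligodendrocyte markers summed to 108 to 121 CPM and 104 to 114 CPM, and the 8 endothelial markers to 22.5 to 23.8 CPM and 25 to 29.1 CPM, the latter higher in Cre+ cells without overlap and carried by Flt1 (log2 fold change 0.33, adjusted p = 0.025, edgeR). No listed marker was at 0 in every library.

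The share of the transcriptome taken by these genes was alike in both groups. The 41 members together took 0.834% to 0.864% of the counts of a library, and the groups overlapped. Transcripts were ranked by FPKM, the CPM per kilobase of exon, to allow for unlike lengths of genes. The length is that of all annotated exons of a gene, not of the transcript present. The order is therefore approximate, and the ranges over libraries do not include this error. Aldoa (aldolase A) stood at the top with 749 to 798 FPKM over the 6 libraries. Ldha (lactate dehydrogenase A) followed at 329 to 338, Pkm (pyruvate kinase M) at 281 to 314, Gapdh at 161 to 169, Eno1 (enolase 1) at 125 to 136 and Pgam1 (phosphoglycerate mutase 1) at 107 to 118 FPKM. Bnip3l, a mitophagy receptor of the outer mitochondrial membrane, came next at 98.1 to 104 FPKM, then Pgk1 (phosphoglycerate kinase 1) at 71.4 to 80.7 and Ldhb at 49.4 to 59.4 FPKM. The ranges of these 9 neighbours in the order did not overlap. Ldhb and the pyruvate carrier subunit Mpc1 (54.3 to 56.9 FPKM) did overlap, as did the glucose transporter Slc2a1 (41.6 to 44.1) and Gpi1 (37.6 to 43.4). Of the genes tested, Pdk1 was lowest, with 0.68 to 0.844 FPKM.

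**Figure D1:**
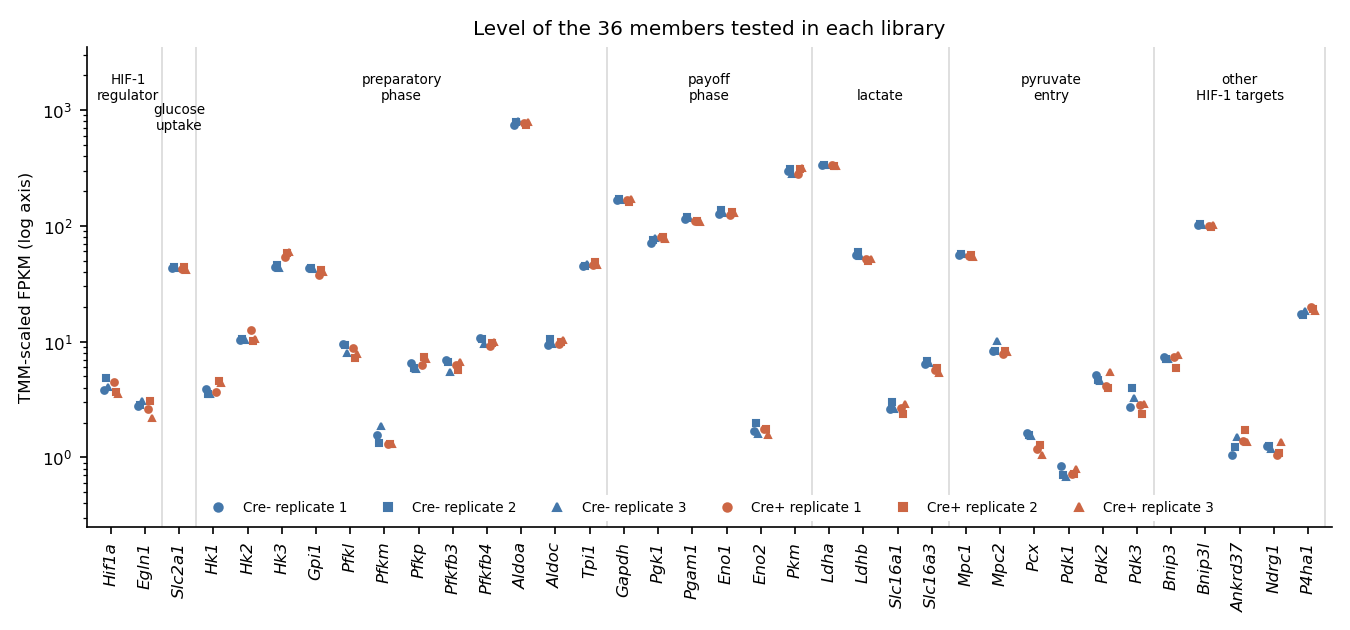
Level of each of the 36 tested genes in each of the 6 libraries, as TMM-scaled FPKM on a log axis, with genes in pathway order, Cre- libraries in blue and Cre+ libraries in red. Levels run from below 1 FPKM for Pdk1 to 749 to 798 FPKM for Aldoa, and the blue and red points of most genes lie on top of each other.

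Few of these genes passed the threshold between Cre- and Cre+ microglia, and the same held for all genes tested. Of the 36 tested, 1 passed the threshold of an adjusted p-value of 0.05 in edgeR's quasi-likelihood test, Hk3, which was higher in Cre+ cells. This is 2.78% of the members, against 5.07% of all genes tested (2.50% higher). The median log2 fold change of the members was -0.03, with 10 above and 26 below 0. Over all genes tested it was 0.00, with 5781 above and 5648 below 0. The sign of such small values depends on the filter. With no filter the median of the members was 0.05, and that of the genes of the main test 0.08. Unadjusted p-values under 0.05 were found for 8 members (22.2%), against 19.1% of all genes. Cre+ and Cre- values did not overlap in 11 members (30.6%), against 24.0% of all genes. Of these, 2 were higher in Cre+ cells, where 12.3% of all genes were, and 9 were lower, where 11.7% of all genes were. The fits were precise enough to bound most differences. The 95% interval of the fold change lay within 1.2-fold in either direction for 18 of the 36 members and within 1.5-fold for 32. The members that no test called are therefore given with their values.

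**Figure D2:**
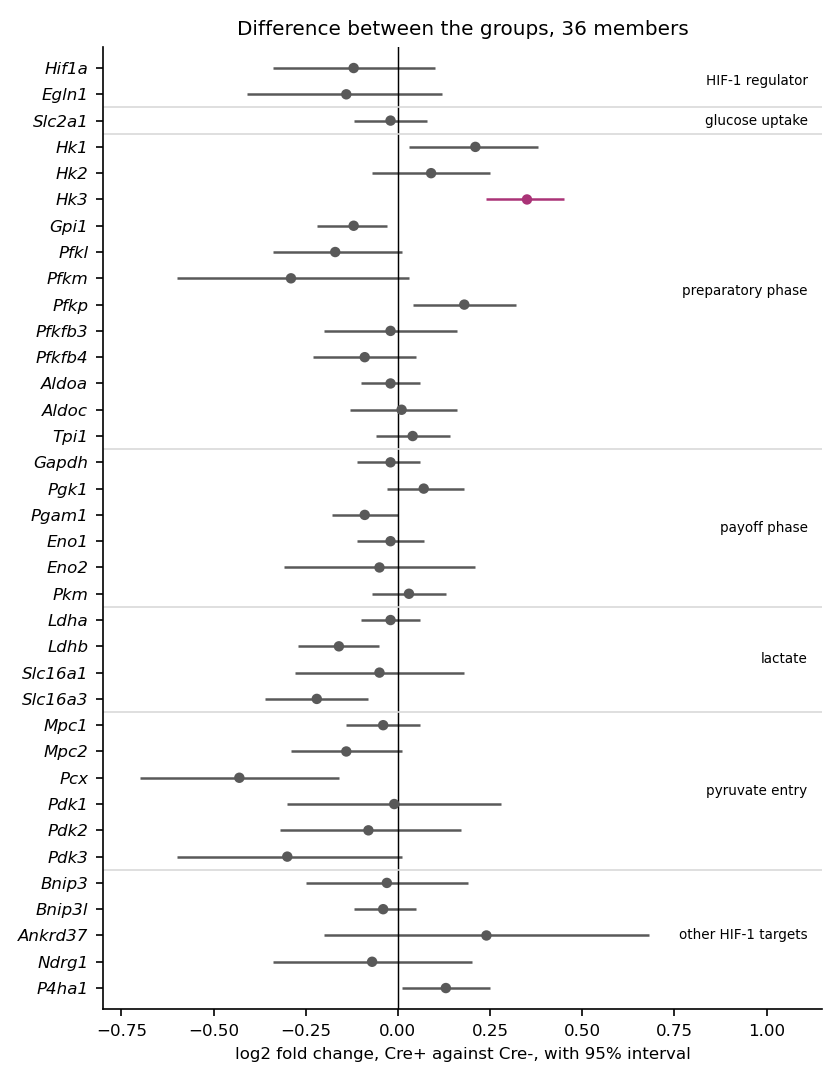
Log2 fold change of Cre+ against Cre- microglia for the 36 tested genes in pathway order, with points for the estimate and lines for its 95% interval. Hk3, in purple, is the gene past the threshold, at 0.35 (0.24 to 0.45), while the intervals of most others cross 0 and those of Pcx (-0.70 to -0.16) and Slc16a3 (-0.36 to -0.08) lie below it.

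Glucose enters through Slc2a1, which encodes GLUT1. Its expression was 151, 153 and 151 CPM in the Cre- and 148, 155 and 146 CPM in the Cre+ libraries. These values overlapped, the log2 fold change was -0.02, and its interval of -0.12 to 0.08 leaves room for less than 1.2-fold either way. Slc2a3, encoding the neuronal transporter GLUT3, had 29 to 56 counts in Cre- and 47 to 65 counts in Cre+ libraries and was below the filter. Slc2a1 made up 99.8% of the FPKM of this pair in each group. Stretches of at least 100 bases with 95% identity to Slc2a3 were found in 44 other genes, so its counts are uncertain.

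Hexokinases, which trap glucose in the cell by phosphorylation, held the member that passed the threshold in the main test. Hk3 (ENSMUSG00000025877, chromosome 13, 55005985 to 55021385), the hexokinase best known from blood and myeloid cells, was at 164, 169 and 160 CPM in the Cre- cultures and 196, 213 and 218 CPM in the Cre+ cultures. Every Cre+ library lay above every Cre- library. Expression rose by 27.2%, a log2 fold change of 0.35 (SE 0.05, 95% interval 0.24 to 0.45, adjusted p = 0.00062, edgeR's quasi-likelihood test). It was called under all 17 alternative settings, with log2 fold changes of 0.32 to 0.43. Its window is the Hk3 sequence above, and no other gene held a near copy of its transcript. Hk2, the hexokinase that HIF-1 and insulin are known to induce, was at 62, 63.3 and 62.4 CPM in Cre- against 76.1, 60.3 and 63 CPM in Cre+ cells. Only Cre+ replicate 1 stood above the controls. Its log2 fold change was 0.09 (interval -0.07 to 0.25), and -0.02 without that library. Hk1, the widespread isozyme of the outer mitochondrial membrane, was at 33.2, 29.9 and 30 CPM in Cre- against 31.4, 38.8 and 37.2 CPM in Cre+ cells. Cre+ replicate 1 lay among the controls, and the log2 fold change of 0.21 was not called (adjusted p = 0.18, edgeR). Per length, Hk3 was the main hexokinase in every library, with 75.9% ± 0.461 of the summed FPKM in Cre- and 78.7% ± 1.94 in Cre+ cells (SD, n = 3), and these shares overlapped. The sum of the 3 hexokinases went from 58.7 ± 1.27 to 72 ± 2.15 FPKM (SD, n = 3) without overlap (exact 2-sided permutation test, p = 0.1, the smallest that 3 against 3 allow). Most of that difference was Hk3, at 44.6 FPKM in Cre- and 56.7 FPKM in Cre+ cells.

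**Figure D3:**
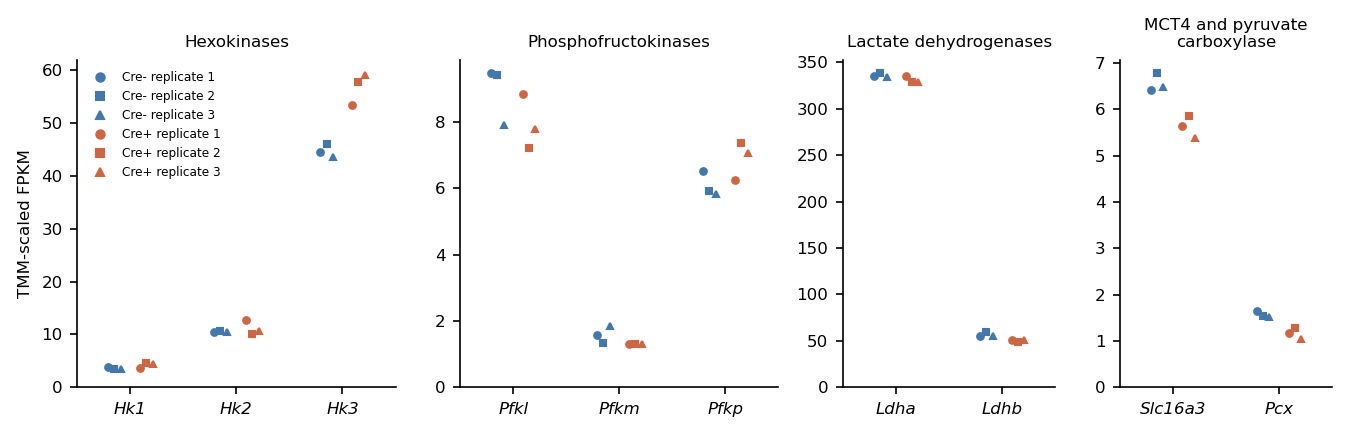
TMM-scaled FPKM in each library for the hexokinases, phosphofructokinases, lactate dehydrogenases, the lactate exporter Slc16a3 and pyruvate carboxylase (Pcx), each panel on its own linear axis from 0. The 3 Cre+ points of Hk3 (53.3 to 59.1) lie above the 3 Cre- points (43.5 to 45.9), Pfkp lies above the controls in Cre+ replicates 2 and 3 only, and Ldhb, Slc16a3 and Pcx lie lower in Cre+ libraries without overlap.

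The phosphofructokinases, which commit sugar to glycolysis, did not pass the threshold, and their values pointed in different directions. Pfkp, the platelet-type isozyme, was at 87.2, 79.3 and 78.1 CPM in Cre- against 83.4, 98.5 and 94.5 CPM in Cre+ cells, where Cre+ replicate 1 lay within the control range. The log2 fold change was 0.18 (adjusted p = 0.15, edgeR), and without Cre+ replicate 1 it was 0.24 and called (adjusted p = 0.048, edgeR). Pfkl, the liver-type isozyme, was at 63.1, 62.8 and 52.7 CPM in Cre- against 59, 48.2 and 51.9 CPM in Cre+ cells, and the groups overlapped (log2 fold change -0.17, interval -0.34 to 0.01, and -0.10 without Cre+ replicate 2). Pfkm, the muscle-type isozyme, was scarce, at 5.25, 4.46 and 6.22 CPM in Cre- against 4.37, 4.36 and 4.34 CPM in Cre+ cells. Its groups did not overlap, but the interval of -0.60 to 0.03 reached 0, and without Cre- replicate 3 the log2 fold change went from -0.29 to -0.16. Per length, Pfkp was 36.7% ± 0.993 of the summed FPKM of the 3 isozymes in Cre- and 42.7% ± 4.24 in Cre+ cells (SD, n = 3; no overlap, exact 2-sided permutation p = 0.1). The summed FPKM of the 3 was alike, at 16.6 ± 0.974 and 16.1 ± 0.25 (SD, n = 3), and overlapped. The lengths cover all annotated exons, with 13401 bases for Pfkp, 6675 for Pfkl and 3340 for Pfkm, so the shares depend on the annotation. In mean CPM, Pfkp stood above Pfkl, at 81.5 against 59.5 in Cre- and 92.2 against 53.1 in Cre+ cells. Pfkfb3 and Pfkfb4, which set the level of the activator of phosphofructokinase, fructose bisphosphate in its regulatory form, had log2 fold changes of -0.02 and -0.09, and both overlapped.

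The rest of the preparatory phase stayed close to 0. Gpi1, glucose phosphate isomerase, was at 280, 278 and 275 CPM in Cre- against 243, 266 and 256 CPM in Cre+ cells. Every Cre+ library was lower, by 8.2% on average in the fit, and the difference was not called (log2 fold change -0.12, adjusted p = 0.14, edgeR). Aldoa had a log2 fold change of -0.02 at 2265 ± 74.6 CPM in Cre- against 2233 ± 52.5 CPM in Cre+ cells (SD, n = 3). Aldoc, an aldolase abundant in astrocytes, was at 32.1 ± 1.89 and 32.4 ± 1.08 CPM (SD, n = 3) and made up 1.25% and 1.28% of the summed aldolase FPKM. Most defining astrocyte markers were below 1 CPM here, as given above. Tpi1, triosephosphate isomerase, had a log2 fold change of 0.04, with 123 to 129 CPM in Cre- against 126 to 134 CPM in Cre+ libraries.

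The 6 payoff genes stayed near 0, with log2 fold changes from -0.09 to 0.07. None passed the threshold with edgeR, DESeq2 or limma voom, and 0 of 6 had an unadjusted p-value under 0.05. Gapdh, often used as a reference gene, was at 692, 699 and 696 CPM in Cre- against 688, 664 and 700 CPM in Cre+ cells. Its log2 fold change was -0.02, with an interval of -0.11 to 0.06, although 141 other genes hold near copies of its transcript and together carried 17.7% as many CPM. Pgk1, which makes the first ATP of glycolysis, was at 160, 169 and 175 CPM in Cre- against 178, 181 and 172 CPM in Cre+ cells (log2 fold change 0.07, interval -0.03 to 0.18). Pgam1 was at 227, 233 and 230 CPM in Cre- against 220, 218 and 213 CPM in Cre+ cells, lower without overlap, with a log2 fold change of -0.09 (interval -0.18 to 0.00). Eno1 ran from 677 to 730 CPM in Cre- against from 670 to 706 CPM in Cre+ libraries. It had 98.7% of the enolase FPKM in each group, with Eno2, the enolase best known from neurons, at 7.48 to 9.4 CPM and 7.38 to 8.33 CPM. The summed neuronal markers were lower in Cre+ libraries without overlap, whereas Eno2 overlapped. Pkm was at 1476, 1538 and 1406 CPM in Cre- against 1409, 1540 and 1572 CPM in Cre+ cells, and its log2 fold change was 0.03 (interval -0.07 to 0.13).

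The 4 genes of lactate production and export all had log2 fold changes below 0. None was called with limma voom or in the main test with edgeR. Of the 4, 2 had an unadjusted p-value under 0.05 (50%, against 19.1% of all genes tested). These 2, Ldhb and Slc16a3, were called by DESeq2, and by edgeR with the filter at 5 CPM. Ldha, which favours the step from pyruvate to lactate, was at 1108, 1120 and 1106 CPM in Cre- against 1107, 1090 and 1090 CPM in Cre+ cells. Its groups overlapped, and its interval of -0.10 to 0.06 is among the narrowest of the members. Ldhb, whose subunit favours the return of lactate to pyruvate, was at 87.6, 93.2 and 86.5 CPM in Cre- against 80.8, 77.6 and 80.7 CPM in Cre+ cells. Every Cre+ library was lower, and the log2 fold change was -0.16 (SE 0.05, adjusted p = 0.093 with edgeR and 0.041 with DESeq2). Per length, its part of the lactate dehydrogenase FPKM was 14.5% ± 0.412 in Cre- and 13.3% ± 0.23 in Cre+ cells (SD, n = 3; no overlap, exact 2-sided permutation p = 0.1). Slc16a3 encodes MCT4, the transporter through which glycolytic cells export lactate. It was at 34.2, 36.1 and 34.5 CPM in Cre- against 30, 31.2 and 28.6 CPM in Cre+ cells, again lower in every Cre+ library. Its log2 fold change was -0.22 (SE 0.07, adjusted p = 0.071 with edgeR and 0.021 with DESeq2). Slc16a1, encoding the widespread transporter MCT1, was at 11.5, 13.2 and 11.6 CPM in Cre- against 11.9, 10.5 and 12.7 CPM in Cre+ cells and overlapped (log2 fold change -0.05). The summed FPKM of both transporters was 9.3 ± 0.402 in Cre- and 8.27 ± 0.049 in Cre+ cells (SD, n = 3; no overlap, exact 2-sided permutation p = 0.1).

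The 6 genes that govern the entry of pyruvate into mitochondria also lay below 0, from -0.43 to -0.01. None was called with limma voom or in the main test with edgeR. Of the 6, 1 had an unadjusted p-value under 0.05 (16.7%, against 19.1% of all genes tested). That gene, Pcx, was called by DESeq2, and by edgeR with the filter at 5 CPM. Pcx encodes pyruvate carboxylase, which makes oxaloacetate from pyruvate to refill the citric acid cycle. It was at 7.8, 7.35 and 7.27 CPM in Cre- against 5.6, 6.08 and 4.96 CPM in Cre+ cells. The groups were well apart, and the log2 fold change of -0.43 was the one farthest below 0 among the members tested (SE 0.13, adjusted p = 0.066 with edgeR and 0.02 with DESeq2). Mpc1 and Mpc2 form the mitochondrial pyruvate carrier. Mpc1 was at 115, 118 and 118 CPM in Cre- against 114, 115 and 113 CPM in Cre+ cells. Mpc2 was at 61.2, 61.3 and 74 CPM in Cre- against 57.8, 60.5 and 59.6 CPM in Cre+ cells. Both were lower in the Cre+ libraries without overlap, by 2.8% and 9.4% in the fit, and the interval of Mpc2 was -0.29 to 0.01. Without Cre- replicate 3, the highest library, the log2 fold change of Mpc2 went from -0.14 to -0.05. A pseudogene of Mpc1 with 100% identity over the aligned stretch was at 23.6 CPM, so reads of Mpc1 may be split. The pyruvate dehydrogenase kinases, which switch the dehydrogenase off, overlapped between the groups. Pdk1, a known HIF-1 target, was at 5.29 to 6.57 CPM in Cre- against 5.56 to 6.14 CPM in Cre+ libraries (log2 fold change -0.01). Pdk2 had a log2 fold change of -0.08 and Pdk3 one of -0.30 (interval -0.60 to 0.01), with Pdk3 at 7.03, 10.1 and 8.31 CPM in Cre- against 7.29, 6.05 and 7.4 CPM in Cre+ cells. Without Cre- replicate 2, the highest library, the log2 fold change of Pdk3 was -0.15, and across the fits that left out 1 library it ran from -0.42 to -0.15.

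The transcripts of HIF-1α and of its prolyl hydroxylases among the members overlapped between the groups. Hif1a, encoding HIF-1α, was at 22.4, 28.4 and 23.7 CPM in Cre- against 26.3, 21.5 and 20.7 CPM in Cre+ cells. The log2 fold change was -0.12 (interval -0.34 to 0.10), and -0.02 without Cre- replicate 2, the highest library. HIF-1α is controlled mostly as a protein, which these data do not measure. Egln1, encoding PHD2, the main prolyl hydroxylase for HIF-1α, was at 9.99, 10.3 and 11 CPM in Cre- against 9.4, 11 and 7.9 CPM in Cre+ cells. Cre+ replicate 3 was lower than the rest, and without it the log2 fold change went from -0.14 to -0.03. Egln3, encoding the inducible PHD3, was below the filter with 21 to 52 counts in Cre- and 19 to 46 counts in Cre+ libraries.

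Of the 7 other HIF-1 targets, 5 were tested. None was called with edgeR, DESeq2 or limma voom, and 1 of 5 had an unadjusted p-value under 0.05. That gene was P4ha1, a prolyl hydroxylase that matures collagen, at 70.6, 69.5 and 76.1 CPM in Cre- against 82.2, 78.8 and 76.1 CPM in Cre+ cells. Cre+ replicate 3 lay just above Cre- replicate 3, and the log2 fold change was 0.13 (interval 0.01 to 0.25, adjusted p = 0.20, edgeR). Bnip3, a mitophagy receptor, was at 16.6, 15.9 and 16 CPM in Cre- against 16.8, 13.3 and 17.4 CPM in Cre+ cells, with Cre+ replicate 2 the lowest. Bnip3l was at 391, 400 and 393 CPM in Cre- against 387, 379 and 389 CPM in Cre+ cells, lower without overlap by 2.5% in the fit (log2 fold change -0.04, interval -0.12 to 0.05). Ankrd37 had the fewest counts of the members tested, at 1.62, 1.91 and 2.31 CPM in Cre- against 2.13, 2.67 and 2.11 CPM in Cre+ cells, and its interval of -0.20 to 0.68 bounds little. Its log2 fold change of 0.24 ran from 0.12, without Cre- replicate 1 or Cre+ replicate 2, to 0.38, without Cre- replicate 3. Ndrg1, a gene of stress and differentiation, was at 7.74 to 8.29 CPM in Cre- against 6.89 to 8.96 CPM in Cre+ libraries (log2 fold change -0.07).

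Some textbook targets of hypoxia were hardly detected. Vegfa, encoding the vascular growth factor, had 22, 32 and 14 counts in the Cre- and 32, 14 and 26 counts in the Cre+ libraries. Adm, encoding adrenomedullin, had 8, 0 and 15 counts and 18, 0 and 4 counts. Fbp1, encoding the fructose bisphosphatase that runs against glycolysis, had 0, 1 and 6 counts in the Cre- and 0, 0 and 0 counts in the Cre+ libraries. A count of 0 allows up to 3 counts, which is 0.027 to 0.0343 CPM depending on the library and covers counting error only. With Egln3 and Slc2a3, these are the 5 members that were not tested, and in each of the 5 the groups overlapped. A second row with the symbol Aldoa, beside the gene proper, held 0 to 10 counts and was not tested.

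Beyond the members, the HIF pathway list had 9 of 10 genes tested, with 1 higher and 1 lower in Cre+ cells (22.2%, against 5.07% of all genes tested). Epas1, encoding HIF-2α, was at 93.3, 90.4 and 82.6 CPM in Cre- against 141, 96.7 and 108 CPM in Cre+ cells, with Cre+ replicate 1 far above the other 5. Its log2 fold change was 0.38 (SE 0.10, adjusted p = 0.041, edgeR). The rise was not called without Cre+ replicate 1 (0.20), Cre+ replicate 3 (0.42) or Cre- replicates 1, 2 or 3 (0.40, 0.39 and 0.32), nor with DESeq2 or limma voom. Egln2, encoding PHD1, was at 33.4, 33 and 33.8 CPM in Cre- against 28.9, 25.9 and 23.3 CPM in Cre+ cells. It fell by 0.36 on the log2 scale (SE 0.08, adjusted p = 0.016, edgeR). It was no longer called without Cre- replicate 3 (-0.35), Cre+ replicate 2 (-0.35) or Cre+ replicate 3 (-0.28). Arnt, the partner of HIF-1α, Vhl, which targets HIF-1α for degradation, and Hif1an, which blocks its activity, had log2 fold changes of 0.04, -0.08 and 0.17, and none of these 3 was called.

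A list of 26 further HIF-1 targets had 21 genes tested, with 2 higher and 2 lower past the threshold (19%, against 5.07% of all genes tested) and a median log2 fold change of 0.03. Ppfia4, encoding liprin-α4, went from 7.6, 8.7 and 6.38 CPM in Cre- to 15, 17.9 and 16.7 CPM in Cre+ cells. It rose by 1.13 on the log2 scale (SE 0.12, adjusted p = 3.6e-05, edgeR). Anxa2, a membrane-binding annexin, rose from 989 ± 11.4 to 1157 ± 59.9 CPM (SD, n = 3, log2 fold change 0.23). Hmox1, the inducible heme oxygenase, fell from 502, 484 and 511 CPM to 392, 392 and 384 CPM, a log2 fold change of -0.36 (adjusted p = 6.2e-05, edgeR). Cxcr4, a chemokine receptor, fell from 21.3 ± 1.92 to 14.5 ± 0.748 CPM (SD, n = 3, log2 fold change -0.55). These 4 genes were called under all 17 alternatives, and they moved both ways. Of the 21 tested, 8 had an unadjusted p-value under 0.05 (38.1%, against 19.1% of all genes tested). The groups did not overlap in 9 of the 21 (42.9%, against 24.0% of all genes tested), 5 higher and 4 lower in Cre+ cells. Car9, encoding a carbonic anhydrase that HIF-1 is known to control tightly, was not called. It was at 5.74 and 6.59 CPM on average and overlapped.

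**Figure D4:**
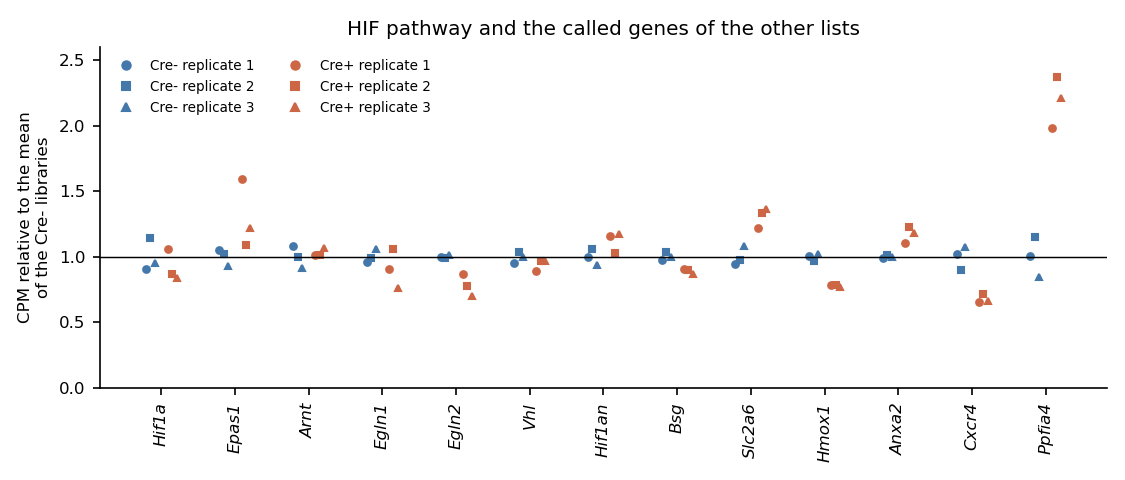
CPM in each library divided by the mean of the Cre- libraries, for Hif1a and genes that act on it (left) and for the genes of the other lists that passed the threshold (Epas1, Egln2 and right). The Cre+ points of Ppfia4 lie far above the control mean and those of Hmox1 and Cxcr4 well under 1, while Hif1a, Arnt, Egln1, Vhl and Hif1an scatter around 1.

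Among 24 other glycolytic isozymes and regulators, 13 were tested and 2 passed the threshold (15.4%, against 5.07% of all genes tested). Slc2a6, encoding GLUT6, a hexose transporter of lysosomes, was at 11.3, 11.7 and 13 CPM in Cre- against 14.6, 16 and 16.4 CPM in Cre+ cells. It rose by 0.39 on the log2 scale (SE 0.10, adjusted p = 0.032, edgeR). The call was lost without Cre- replicate 1 (0.33), Cre- replicate 2 (0.37), Cre+ replicate 2 (0.37) or Cre+ replicate 3 (0.35). Bsg, encoding basigin, the chaperone that carries MCT1 and MCT4 to the cell surface, was at 365, 388 and 373 CPM in Cre- against 341, 336 and 326 CPM in Cre+ cells. It fell by 0.17 on the log2 scale (SE 0.04, adjusted p = 0.035, edgeR). This call was lost without Cre- replicate 2 (-0.14), Cre- replicate 3 (-0.17), Cre+ replicate 1 (-0.18), Cre+ replicate 2 (-0.17) or Cre+ replicate 3 (-0.15), and its log2 fold change was -0.09 with no expression filter. DESeq2 called Slc2a8 as well, which encodes the transporter GLUT8.

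The neighbouring pathways had no gene past the threshold with edgeR, DESeq2 or limma voom. In the citric acid cycle, 13 of 16 genes tested lay above 0, with a median log2 fold change of 0.08 against 0.00 over all genes. Unadjusted p-values under 0.05 were found for 6 of the 16 (37.5%, against 19.1% of all genes tested). The groups did not overlap in 7 of the 16 (43.8%, against 24.0% of all genes tested). Of these, 6 were higher and 1 lower, where 12.3% and 11.7% of all genes were. Ogdh, a subunit of the oxoglutarate dehydrogenase complex, was at 159 ± 7.67 and 179 ± 13.7 CPM (SD, n = 3), a log2 fold change of 0.17 (adjusted p = 0.11, edgeR). Suclg1, a succinyl-CoA ligase subunit, had a log2 fold change of 0.15 (adjusted p = 0.12, edgeR). In the pyruvate dehydrogenase complex, 6 of 8 genes lay above 0 and 0 of 8 had an unadjusted p-value under 0.05, with the smallest for its subunits Pdha1 (log2 fold change 0.12) and Pdhx (0.14). The groups did not overlap in 6 of these 8 genes, 5 higher and 1 lower in Cre+ cells, or 75% against 24.0% of all genes tested. In the pentose phosphate pathway, 3 of 7 genes had an unadjusted p-value under 0.05 (42.9%, against 19.1% of all genes tested). Taldo1 (transaldolase) was lower without overlap, at 1032 ± 22.5 and 951 ± 22.5 CPM (SD, n = 3, log2 fold change -0.12), and Rpe (ribulose phosphate epimerase) higher, at 30.1 ± 0.674 and 34.4 ± 0.473 CPM (SD, n = 3, log2 fold change 0.19). In glycogen metabolism and gluconeogenesis, 11 of 14 genes were tested and 0 had an unadjusted p-value under 0.05, with Pygb at 0.13 and Pck2 at -0.11 the nearest to a call.

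Some spread between cultures ran through the members. Cre- replicate 2 was the highest of its group in 17 of the 36 genes tested and the lowest in 4, while Cre+ replicates 1, 2 and 3 were highest in 8, 14 and 14. The median deviation of a library from its group was at most 0.02 on the log2 scale. The neuronal list and the fibroblast and mural list, which were lower in Cre+ cells, each summed to under 5 CPM in every library, and their part in the members with lower values was not tested.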

How the data were processed

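Bulk RNA-seq of 3 Cre- and 3 Cre+ microglial cultures was analysed. The deposited values are whole-number counts per Ensembl gene, which the authors made on GRCm38 with STAR and featureCounts (versions 2.7.9a and 2.0.3 in the submitters' processing notes), with no normalization or filter on genes. CPM as deposited are the counts divided by the library total, and FPKM as deposited by the authors are CPM per kilobase of gene length; both were read only to check their unit and to take the lengths. The kit amplifies cDNA from low input, and whether counting used strand is not given in the sources used here.

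Symbols and coordinates came from GENCODE M21, which matched 55227 of 55487 genes. The 260 unmatched genes held 0.00257% of the counts. The 356 rRNA and Mt_rRNA genes were removed, the filter kept genes that exceeded 1 CPM in 4 or more libraries, and the fit used edgeR 4.0.16 (R 4.3.3; TMM, factors 0.986 to 1.01, quasi-likelihood test, no covariates, Benjamini-Hochberg over all genes tested, threshold 0.05). The filter, TMM and the design with 2 groups are those of the study, whose own test was limma's voomWithQualityWeights. The standard error was taken from the fold change and F (log2 fold change over the root of F), and intervals are at 95%. The coefficient of variation between cultures was 10%. Groups of 3 allow no exact permutation p under 0.1. Members and gene lists were chosen with earlier results of these data known, so no test was made over a list. Every member is named; of the other lists, each gene past the threshold, or else the 2 with the smallest p, is named. Cell markers were described as sums. Car9, Arnt, Vhl, Hif1an, Slc2a8, P2ry12, Itgam and Flt1 are named outside it, a choice made after seeing their values.

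Alternatives were DESeq2 1.42.0 and its size factors, library totals, limma 3.58.1 voom with and without quality weights, no filter, filterByExpr, above 5 CPM in at least 4 libraries, no removal by biotype, removal of ribosomal protein genes, the replicate number as a block, and leaving out each library. For Nr1d1 and the called genes of other lists these were added after the data were seen. The scripts were tested on simulated data. Near copies (at least 100 bases at 95% identity) were found with blastn 2.17.0.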

Additional observations from a re-analysis of the deposited data

How the results depend on the processing

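Hk3 was called under all 17 alternatives. Without a filter 3 members were called (Hk1, Hk3 and Pfkp, 1528 genes in all), with DESeq2 4 (Hk3, Ldhb, Slc16a3 and Pcx, 886 genes) and with the filter at 5 CPM the same 4. Leaving out 1 library gave 1 to 2 members, 2 without Cre+ replicate 1 (Hk3 and Pfkp), and 317 to 448 genes, with 339 without Cre- replicate 3, 376 without Cre+ replicate 2 and 317 without Cre+ replicate 3, where fewer samples entered the fit. The median log2 fold change of the members was 0.05 with no filter, 0.01 with filterByExpr, -0.05 at 5 CPM, and -0.05 to -0.02 with 1 library left out. The median of the genes of the main test shifted by 0.08 with no filter and by 0.05 with filterByExpr.

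Of 610 member values under the alternatives, 557 kept their direction and side of the threshold, 9 passed it anew, 0 fell below it, and 44, in 17 members with at most 0.0883 in size, changed sign. Without a filter the log2 fold changes were 0.06 for Aldoa, Eno1, Ldha, Pfkfb3 and Slc2a1, 0.05 for Bnip3 and Gapdh, 0.04 for Bnip3l and Mpc1, 0.02 for Eno2, 0.01 for Ndrg1 and Pdk2, 0.07 for Pdk1 and 0.03 for Slc16a1. With filterByExpr they were 0.02 for Aldoa, Eno1, Gapdh, Ldha, Pfkfb3 and Slc2a1, 0.01 for Bnip3 and Bnip3l, 0.0016 for Mpc1 and 0.04 for Pdk1. With 1 library left out, members that changed sign ran over these ranges: Aldoc -0.03 to 0.06, Bnip3 -0.1 to 0.08, Eno1 -0.06 to 0.01, Eno2 -0.12 to 0.05, Hk2 -0.02 to 0.15, Ndrg1 -0.2 to 0.0012, Pdk1 -0.07 to 0.08, Pdk2 -0.23 to 0.01, Pfkfb3 -0.12 to 0.04, Pkm -0.0019 to 0.08 and Slc16a1 -0.11 to 0.02.

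The replicate number as a block left 1 member (Hk3) and a median of -0.04, gave 430 genes, and took the call of Bsg (-0.17, adjusted p = 0.082, edgeR). The deviations of same-numbered libraries from their groups had correlations of 0.007, -0.033 and -0.056. With so few libraries per group, these values cannot show whether same-numbered cultures shared more than a number. The expression filter, a limit in CPM that scales with depth, kept 5 members out of the test. For members with few counts, such as Ankrd37, counting error adds to the spread between cultures, and their parts were not separated.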

Other observations

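Near copies and overlapping genes limit some values. Of the 41 members, 16 had at least 1 other gene with a stretch of 100 bases or more at 95% identity. The copies together carried CPM equal to 21.5% of those of Mpc1, 17.7% of Gapdh, 13.3% of Bnip3 and 4.17% of Eno1, where the copy Eno1b was at 18.5 CPM. Of the same members, 14 shared exonic bases with another gene, and 5 did so over at least 10% of their exons: Pfkm (10.2%), Pkm (15.3%), Bnip3 (22.3%), Ankrd37 (22.7%) and Mpc1 (23.1%). The overlapping genes of these 5 were below 3 CPM, apart from Senp1 (9.52 CPM, 18 bases shared with Pfkm) and Ufsp2 (82.3 CPM, 57 bases shared with Ankrd37). Under that limit of 10%, Pfkp shared 748 bases (5.58%) with Pitrm1, which lies on the opposite strand and was at 43.1 CPM. Without strand, reads over shared bases cannot be told apart. Hk3 had no near copy and shared 34 bases with Unc5a, which was at 0.0832 CPM.

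The make-up of the regulatory isozymes was also steady. Pfkfb4 was 61.9% ± 1.37 of the summed FPKM of Pfkfb3 and Pfkfb4 in Cre- and 60.8% ± 2 in Cre+ cells (SD, n = 3). Among the pyruvate dehydrogenase kinases of the members, Pdk2 was 54.1% ± 4.44 and 56.6% ± 2.93, Pdk3 37.4% ± 5.51 and 34% ± 2.65, and Pdk1 8.46% ± 1.11 and 9.36% ± 0.77 (SD, n = 3). The groups overlapped in each of these shares.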
